A study of Caenorhabditis elegans with 6 samples.

Results

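The germlines of “red-head” F1 worms, which carry only the chromosomes that came in with the sperm, were compared with germlines that carry the chromosomes of both parents. The comparison used 4 of the 6 RNA-seq libraries of the study, chosen by their labels: 2 of “red-head” germlines and 2 of control germlines. All samples were distal gonad arms of day 1 adult Caenorhabditis elegans hermaphrodites kept at 24 °C, cut at the bend where cells are in late pachytene. “Red-head” worms had HBR1281 mothers, which carry oxTi411 (eft-3p::TdTomato::H2B with the unc-54 3′UTR and Cbr-unc-119(+)) and ddIs32 (yfp::gpr-1), and HBR1280 fathers. Their germlines carry oxTi75 (eft-3p::GFP::H2B with the tbb-2 3′UTR and unc-18(+)) and are of the HBR1280 genotype. Control germlines were HBR1280 themselves, from HBR1280 hermaphrodite parents, so that the same oxTi75 transgene was present in both groups. The last group of the study, germlines of F2 offspring of “red-head” hermaphrodites with 2 libraries, shared the fit and is cited only where its level helps to read a value.

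A “red-head” worm is a mosaic. Excess GPR-1, which controls the pulling forces on the spindle, sends the sperm and oocyte pronuclei to different daughters at the first division, and the daughter with the sperm chromosomes gives rise to the germline. That daughter also forms the intestine and most body wall muscle, while the other daughter, with the oocyte chromosomes, forms most of the nervous system and epidermis. The distal arm of the adult gonad holds mitotic stem cells and meiotic prophase nuclei around a shared core of cytoplasm, in which RNA for the oocytes is made. “Red-head” worms came from a cross of 2 strains and controls from 1 strain, so cross, maternal strain and chromosome origin cannot be told apart. Each library pooled many gonad arms, and the study's text calls the libraries biological replicates.

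The values were whole-number read counts per gene, and levels are given here as CPM, the usual depth-scaled read count, with library totals scaled by TMM. Reads on genes came to 11310273 and 2721055 for “red-head” germlines, against 7469633 and 4980329 for control germlines. At the depth of the smallest library, 13317 and 11976 genes had at least 1 count in “red-head” germlines, against 12930 and 13827 in control germlines. “Red-head” replicate 2 was thus the shallowest library of the comparison. The median absolute log2 difference between libraries over the tested genes was 0.28 within the “red-head” pair, 0.20 to 0.27 between a “red-head” and a control library, and 0.17 within the control pair. The tags in the library names differ between the groups, and no tag holds both a “red-head” and a control library, so a batch marked by a tag and the group cannot be told apart.

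No gene passed an adjusted p of 0.05 in edgeR's quasi-likelihood test, fitted on all 6 libraries over 8117 genes (0% called in each direction), and no adjusted p lay below 0.113. Before adjustment, 308 genes (3.79%) on the higher side and 313 (3.86%) on the lower side had p under 0.05. DESeq2 on the same counts called 60 genes higher (0.641% of 9367 genes) and 29 lower (0.31%) at an adjusted p of 0.05, and on the 4 libraries compared it called 75 higher (0.879%) and 35 lower (0.41%), of which 82 were also called on 6. In edgeR without “red-head” replicate 2, 54 genes were called, 36 of them lower, and without a filter on low counts 355 were called, 176 of them lower. A fitted change of at least 2-fold was found for 333 higher (4.1%) and 216 lower genes (2.66%). The genes described below are therefore given with their values in every library, and a DESeq2 call is named as such, from the fit on 6 libraries unless stated.

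The design has 2 libraries a side, and a gene was called separated where both “red-head” libraries lay above, or both below, the 2 controls. This held for 1496 higher genes (18.4% of those tested) and 1587 lower genes (19.6%), or 38% in either direction. Most of these were narrow. The median gap between the nearest “red-head” and control libraries, on log2(CPM + 0.5), was 0.12 in both directions. A gap of at least 0.5 was found for 245 higher (3.02%) and 169 lower genes (2.08%), a gap of at least 1 for 127 higher genes (1.56%) and 52 lower genes (0.641%), and a gap of at least 2 for 46 higher (0.567%) and 11 lower genes (0.136%). The wide gaps were thus more often on the higher side, while narrow separations were about as frequent in both directions. All 88 DESeq2 calls that edgeR also tested were separated. The remaining one, lys-7, a lysozyme gene, did not pass edgeR's filter on low counts.

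**Figure D1:**
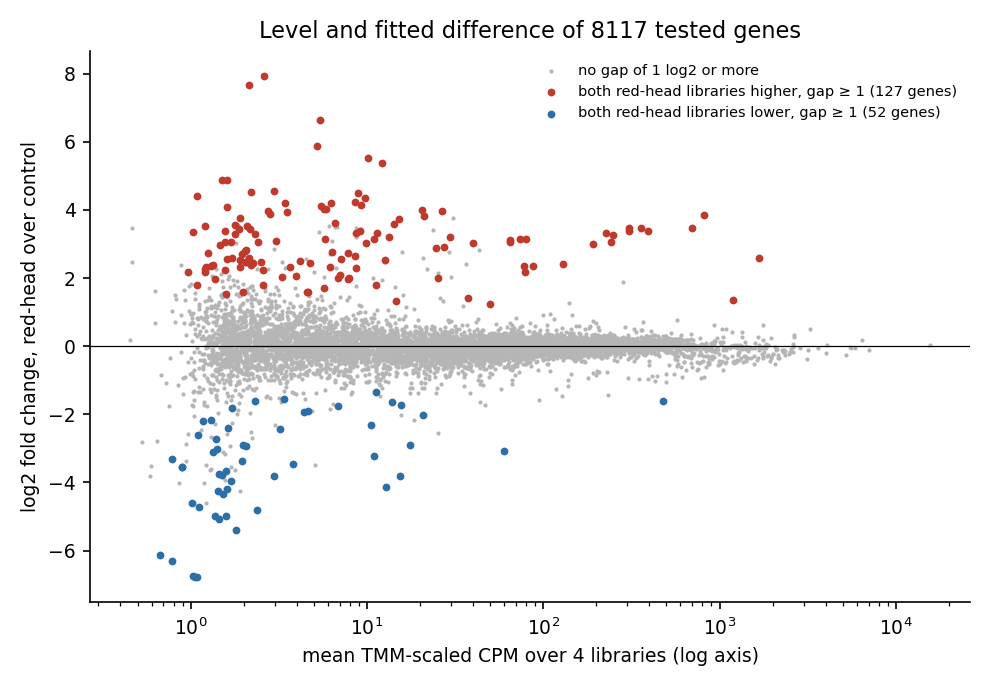
Mean level over the 2 “red-head” and 2 control libraries (TMM-scaled CPM, log axis) against the fitted log2 fold change for the 8117 tested genes. Red points are the 127 genes with both “red-head” libraries above both controls by at least 1 on the log2 scale, and blue points the 52 genes below them by as much; most of the coloured points lie at low levels and the grey cloud narrows around 0 as the level grows.

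Wide gaps were concentrated at low levels. Of the 127 genes with a gap of at least 1 on the higher side, 87 had a mean under 10 CPM over the 4 libraries, and only 2 had a mean over 1000 CPM, lea-1 and gfat-1. Of the 52 genes on the lower side, 41 had a mean under 10 CPM and none exceeded 1000 CPM. By biotype, 126 of the 127 higher genes were protein-coding, as were 7594 of all 8117 tested genes. The 52 lower genes held 38 protein-coding, 9 snoRNA, 2 snRNA and 2 other noncoding RNA genes and 1 pseudogene. Among all tested genes were 65 snoRNA, 19 snRNA and 39 other noncoding RNA genes and 271 pseudogenes. Gene lists covered 59 of the 127 higher genes, most of them in lists of intestine, lectin, lysozyme and protease genes and of histones. On the lower side 15 of the 52 genes were in a list, and all 15 were spermatogenesis genes.

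Separation in narrow terms depended on the level in a different way. Among 2466 genes under 10 CPM, 482 were higher in both “red-head” libraries and 347 lower, with a median log2 fold change of 0.05. Among 1175 genes of 10 to 30 CPM, 130 were higher and 296 lower, and among 2170 genes of 30 to 100 CPM the numbers were 343 and 545. The order turned at 100 to 300 CPM, where 398 of 1612 genes were higher and 243 lower. At 300 to 1000 CPM, 129 of 559 genes were higher and 106 lower. In the highest class, over 1000 CPM, 14 of 135 genes were higher and 50 lower, and the median log2 fold change was -0.07. Of the 50 lower genes in that class, 32 were cytosolic ribosomal protein genes, described below, which made up 41 of the 135. The 2 “red-head” libraries did not move as one at low levels: the median deviation of the genes under 10 CPM from the control mean was 0.19 in replicate 1 and -0.20 in replicate 2.

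**Figure D2:**
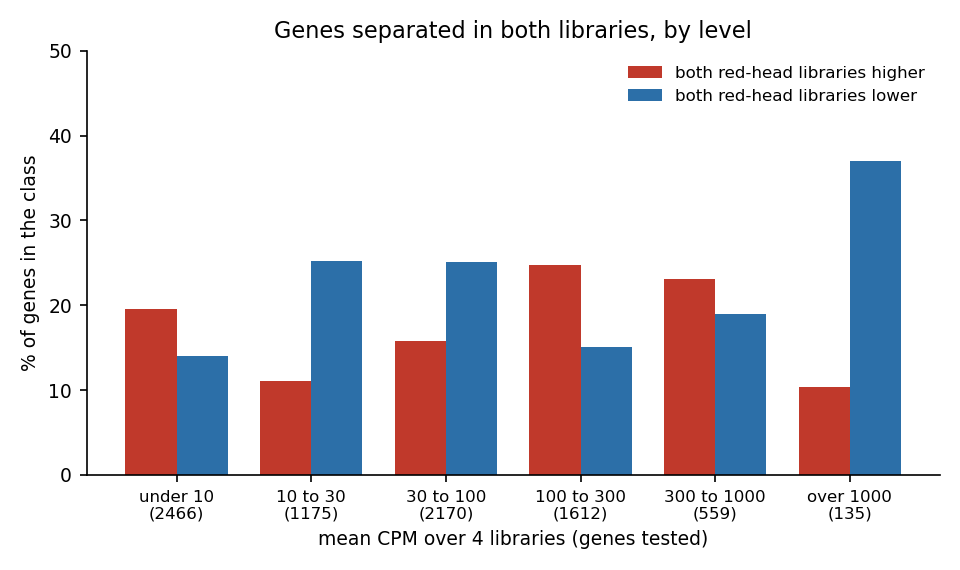
Share of genes (in %) with both “red-head” libraries above both controls (red) or below both controls (blue), by class of mean CPM over the 4 libraries; the number of genes tested is under each class. The lower side is the more frequent from 10 to 100 CPM and over 1000 CPM, where it reaches 37.0%, and the higher side from 100 to 1000 CPM and under 10 CPM.

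Proteases and vitellogenins, both made by the intestine, had the highest medians of the gene lists. The intestine of an adult hermaphrodite makes vitellogenins, the yolk proteins that oocytes take up, and fills its lysosomes and lumen with cathepsin-type proteases. Each of the 6 vitellogenin genes lay above both controls in both libraries, with a median log2 fold change of 3.33, and DESeq2 called 2 of them. The gene vit-6 had 1049 and 2018 CPM in “red-head” germlines, against 127 and 82.8 CPM in control germlines. The gene vit-2 had 1016 and 1546 CPM in “red-head” germlines, against 118.7 and 110 CPM in control germlines. Both were separated by more than 3 on the log2 scale, at log2 fold changes of 3.86 (SE 0.84) and 3.48 (SE 0.59) and DESeq2 adjusted p of 0.0488 and 0.00126. The related vit-5 had 451 and 987 CPM in “red-head” germlines, against 79.6 and 57.1 CPM in control germlines, and its DESeq2 adjusted p was 0.088 on 6 libraries and 2.2e-06 on 4. Vitellogenin genes share long stretches of sequence, and how the counting shared reads among near-identical copies is not stated, so the family is safer to read than each gene. The F2 offspring libraries stood at 325 and 41.7 CPM for vit-6.

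Proteases showed the same direction at lower levels. The list of intestinal lumen and lysosomal proteases holds 22 genes, of which 14 passed the filter and were tested. Of these, 13 were higher in both “red-head” libraries, against 18.4% of all tested genes, and none was lower. The filter keeps a gene that is high in 1 group alone. In the control libraries asp-5 had 5 and 2 counts and cpr-4 had 5 and 4 counts. The share of higher genes and the median thus depend in part on the filter. Their median log2 fold change was 3.88, and DESeq2 called 6. The aspartic protease gene asp-5, on chromosome V, had 21.8 and 26.0 CPM in “red-head” germlines, against 0.672 and 0.392 CPM in control germlines. The gene asp-6 of the same family and chromosome had 32.6 and 44.9 CPM in “red-head” germlines, against 2.29 and 2.55 CPM in control germlines. Their log2 fold changes were 5.39 (SE 0.83, DESeq2 adjusted p = 1.7e-08) and 3.99 (SE 0.66, DESeq2 adjusted p = 3.0e-09). The cathepsin B-like gene cpr-4 had 14.04 and 20.1 CPM in “red-head” germlines, against 0.672 and 0.785 CPM in control germlines (DESeq2 adjusted p = 4.5e-05). The cathepsin L gene cpl-1 had 56.98 and 49.8 CPM in “red-head” germlines, against 8.60 and 2.55 CPM in control germlines, with a DESeq2 adjusted p of 0.178 on 6 libraries and 1.4e-11 on 4. In all 4 genes the groups did not overlap.

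Other intestinal genes lay on the same side. Of 23 listed intestine markers, 12 passed the same filter and were tested. Among these, 11 were higher in both libraries and none was lower, with a median log2 fold change of 2.89. The list holds 3 vitellogenins and 2 of the proteases, so it is not separate from the groups above. Its summed level was 2612 and 4726 CPM in “red-head” germlines, against 350 and 261 CPM in control germlines, and 896 and 149 CPM in the F2 offspring libraries. The defining marker genes that were too low to test had few counts: elt-2, the GATA factor that specifies the intestine, had 5 and 3 counts in “red-head” libraries and 0 in both control libraries, and the esterase gene ges-1 had 16 and 9 counts in “red-head” libraries, against 1 and 0 in control libraries. Among lectin, lysozyme and antimicrobial genes, many of them made by the intestine, 18 of 28 were higher and none was lower, with a median log2 fold change of 2.29. That median depended on which genes were tested. In edgeR it was 0.17 over 7 genes with at least 10 counts asked of every library, and 0.23 over 308 genes with no filter. With DESeq2 it was 0.22 over 308 genes on 6 libraries and 0.41 over 290 genes on 4. The lectin gene clec-63 had 26.1 and 30.5 CPM in “red-head” germlines, against 2.55 and 1.57 CPM in control germlines, with a DESeq2 adjusted p of 0.358 on 6 libraries and 2.0e-11 on 4. The lysozyme gene lys-8 had 4.49 and 17.8 CPM in “red-head” germlines, against 0.672 and 0.588 CPM in control germlines (DESeq2 adjusted p = 0.0023). Counted in 1 “red-head” library alone, 13 of the 14 proteases lay above both controls in replicate 1 and 14 in replicate 2. Of the intestine markers, 12 and 11 did. A count for 1 library cannot be lower than the count for both libraries, so these counts are no separate support. In bulk RNA, more cells of a type and more RNA per cell cannot be told apart, and the part of intestinal tissue in these values was not tested.

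Markers of other somatic tissues moved less, or in 1 library. The counts that follow are set against 18.4% higher and 19.6% lower over all tested genes. Of 19 tested muscle markers, 4 were higher in both libraries (21.1%) and none was lower. Their median log2 fold change was 0.57, and their median deviation from the control mean was 0.06 in replicate 1 and 1.03 in replicate 2. Their summed level was 219 and 409 CPM in “red-head” germlines, against 296 and 240 CPM in control germlines. The myosin heavy chain gene unc-54 had 37.4 and 72.1 CPM in “red-head” germlines, against 40.7 and 20.8 CPM in control germlines, and the groups overlapped. Hypodermis and cuticle markers, 8 of 18 higher and 1 lower, followed replicate 2: the median deviation of the list from the control mean was 0.44 in replicate 1 and 2.36 in replicate 2. The cuticle collagen gene col-160 had 9.14 and 77.6 CPM in “red-head” germlines, against 6.05 and 1.57 CPM in control germlines. Of 6 tested neuron markers 4 were higher and 1 lower, at 3 to 57 counts for all but snb-1. Of 29 listed neuron genes, 23 were too low to test. The median log2 fold change of the 6 tested genes was 0.71. Over 29 genes it was 0.205 in edgeR with no filter and 0.096 with DESeq2 on 6 libraries. The sheath of the gonad, whose contractile cells wrap the germline, gave no common direction, with 5 of 14 markers higher and 2 lower and a median log2 fold change of 0.07.

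**Figure D3:**
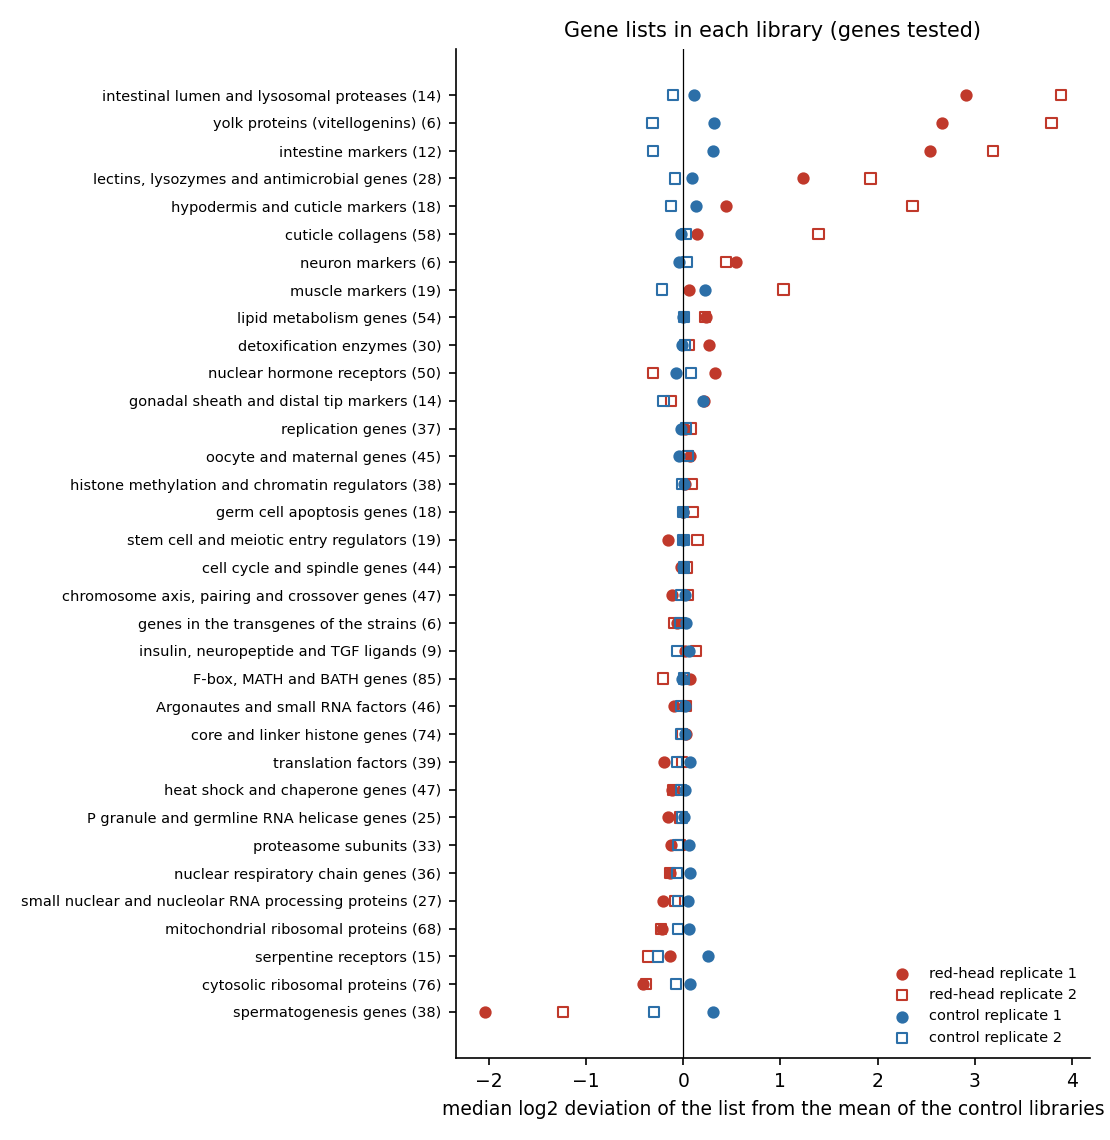
Median log2 deviation of each gene list from the mean of the 2 control libraries, with the number of tested genes in brackets, for each “red-head” (red) and control (blue) library; filled circles are replicate 1 and open squares replicate 2. Intestinal lists lie at the top and spermatogenesis and ribosomal protein genes at the bottom with both “red-head” libraries on the same side, while hypodermis, collagen and muscle lists lie far to the right in replicate 2 and within 0.5 of the control mean in replicate 1.

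Some single genes of metabolism, several of them at high levels, were among the DESeq2 calls on the higher side; they were taken from the calls, and no list of central metabolism was counted. The gene gfat-1 encodes the aminotransferase that makes glucosamine 6-phosphate from fructose 6-phosphate and glutamine, the entry step to UDP-N-acetylglucosamine. It had 1832 and 1585 CPM in “red-head” germlines, against 657 and 665 CPM in control germlines, a 2.59-fold difference. Its unadjusted p of 1.5e-05 was the lowest of all genes, with a log2 fold change of 1.37 (SE 0.14, edgeR adjusted p = 0.113, DESeq2 adjusted p = 2.6e-21). The F2 offspring libraries had 612 and 717 CPM. The glutamine synthetase genes gln-5 and gln-6, whose product is a substrate of that step, were also higher. The gene gln-6 had 1155 and 1098 CPM in “red-head” germlines, against 744 and 722 CPM in control germlines. The gene gln-5 had 479 and 436 CPM in “red-head” germlines, against 276 and 286 CPM in control germlines. Their log2 fold changes were 0.62 (SE 0.11) and 0.70 (SE 0.10), and their DESeq2 adjusted p were 6.7e-06 and 3.3e-05. The Rhesus-type ammonium transporter gene rhr-1 had 81.1 and 60.9 CPM in “red-head” germlines, against 11.2 and 5.88 CPM in control germlines, with a log2 fold change of 3.04 (SE 0.36, DESeq2 adjusted p = 2.9e-13).

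Genes of glycogen, acyl-CoA and propionate metabolism were among the calls of DESeq2 as well, and these genes, other than pck-2, were chosen for the text after their values were seen. The glycogen phosphorylase gene pygl-1 had 2244 and 2037 CPM in “red-head” germlines, against 1334 and 1473 CPM in control germlines (log2 fold change 0.61, DESeq2 adjusted p = 0.0037). The glycogenin gene gyg-2 had 432 and 406 CPM in “red-head” germlines, against 284 and 322 CPM in control germlines (DESeq2 adjusted p = 0.0319). The phosphoenolpyruvate carboxykinase gene pck-2, an enzyme of gluconeogenesis, had 152 and 135 CPM in “red-head” germlines, against 72.3 and 77.9 CPM in control germlines (log2 fold change 0.94, SE 0.11, DESeq2 adjusted p = 4.6e-05). In each of the 3 genes the “red-head” replicates lay closer to each other than to either control. The acyl-CoA synthetase family gene acs-19 had 768 and 678 CPM in “red-head” germlines, against 433 and 420 CPM in control germlines, a 1.70-fold difference (DESeq2 adjusted p = 9.5e-07). The propionyl-CoA carboxylase subunit gene pccb-1 had 248 and 145 CPM in “red-head” germlines, against 75.02 and 90.4 CPM in control germlines (DESeq2 adjusted p = 0.00019).

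The gene with the widest gap among those over 1000 CPM was lea-1, which encodes a late embryogenesis abundant protein, a family known for protection against drying. It had 2710 and 3006 CPM in “red-head” germlines, against 305 and 641 CPM in control germlines, and 229 and 358 CPM in the F2 offspring libraries. The 2 control libraries differed by a factor larger than that between the “red-head” replicates, and the groups still lay apart by 2.08 on the log2 scale. Its log2 fold change was 2.60 (SE 0.36, edgeR adjusted p = 0.113, DESeq2 adjusted p = 7.1e-05).

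The DESeq2 calls also held single desaturase and catalase genes at low levels. Of 54 tested lipid metabolism genes, 21 were higher in both libraries and 6 lower, against 18.4% and 19.6% of all tested genes, with a median log2 fold change of 0.27, and DESeq2 called 4 of them. Of 30 detoxification enzymes, which include the catalases, 11 were higher and 2 lower, with a median of 0.16, and DESeq2 called 2. The desaturase gene fat-2, which makes polyunsaturated fatty acids, had 42.9 and 37.5 CPM in “red-head” germlines, against 8.47 and 11.8 CPM in control germlines (log2 fold change 2.00, SE 0.29, DESeq2 adjusted p = 3.7e-06). The stearoyl-CoA desaturase gene fat-6 had 9.88 and 12.3 CPM in “red-head” germlines, against 1.61 and 1.57 CPM in control germlines (DESeq2 adjusted p = 0.022). The catalase genes ctl-1 and ctl-3 had 41.0 and 57.2 CPM, and 68.0 and 71.3 CPM, in “red-head” germlines, against 21.1 and 21.8 CPM, and 28.1 and 30.99 CPM, in control germlines. Catalase genes of the worm are near-identical neighbours, so reads may have been split between them. Several of these enzymes are also made in the intestine, and the summed level of the intestine markers, given above, was higher in the same libraries; its part in these values was not tested.

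Some eggshell genes lay above both controls by small amounts and others did not; no eggshell list was counted. The eggshell holds a chitin layer made by the synthase CHS-1 from UDP-N-acetylglucosamine, and chondroitin proteoglycans beneath it. Of 45 oocyte and maternal genes, 17 were higher in both libraries (37.8%) and 6 lower (13.3%), against 18.4% and 19.6% of all tested genes. Their median log2 fold change was 0.06. The gene egg-3, whose product anchors CHS-1 and is needed at fertilization, had 324 and 369 CPM in “red-head” germlines, against 242 and 227 CPM in control germlines (log2 fold change 0.56, SE 0.11, DESeq2 adjusted p = 0.0105). The synthase gene chs-1 had 1511 and 1539 CPM in “red-head” germlines, against 1100 and 1200 CPM in control germlines, but its DESeq2 adjusted p was 0.0577. The proteoglycan gene cpg-1 had 3351 and 4253 CPM in “red-head” germlines, against 2528 and 2837 CPM in control germlines (log2 fold change 0.50, SE 0.17, DESeq2 adjusted p = 0.059). Its relative cpg-3 had 637 and 560 CPM in “red-head” germlines, against 410 and 514 CPM in control germlines. All 4 genes were separated, and only egg-3 passed the threshold in DESeq2. Both of the next genes of the list lay slightly below or among the controls: the gene cbd-1 of a chitin-binding eggshell protein had 5324 and 5670 CPM in “red-head” germlines, against 5774 and 5591 CPM in control germlines, and the translational repressor gene oma-2 had 411 and 416 CPM, against 447 and 524 CPM.

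Most cytosolic ribosomal protein genes were lower by small amounts, and none of them had a gap of 1 or more. Ribosomal proteins are encoded by short genes that are among the most abundant in any growing tissue. Of 76 tested genes, 63 were lower in both “red-head” libraries, against 19.6% of all tested genes, none was higher, and 13 overlapped the controls. Their median log2 fold change was -0.41, and 34 had an unadjusted p under 0.05, against 3.86% of all tested genes on that side. DESeq2 called 15 of the 76 lower, out of its 29 lower calls. The summed level of the list was 76732 and 83381 CPM in “red-head” germlines, against 106899 and 96140 CPM in control germlines, and 116521 and 113033 CPM in the F2 offspring libraries. In each “red-head” library alone, 72 and 65 of the 76 genes lay below both controls, counts that cannot be lower than the 63 for both libraries.

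Of the 29 lower DESeq2 calls, 20 were genes named as ribosomal protein, ribosomal stalk or ubiquitin fusion genes. Those outside the list were ubq-2, rplp-1, rplp-2.1, rplp-2.2 and fau-1. The gene ubq-2, which encodes ubiquitin fused to a protein of the large subunit, had 190 and 289 CPM in “red-head” germlines, against 619 and 823 CPM in control germlines, with a log2 fold change of -1.60 (SE 0.24, DESeq2 adjusted p = 2.1e-10). The large subunit gene rpl-37.2 had 59.7 and 79.1 CPM in “red-head” germlines, against 156 and 218 CPM in control germlines, with a log2 fold change of -1.45 (SE 0.21, DESeq2 adjusted p = 3.0e-07). The small subunit gene rps-21 had 368 and 274 CPM in “red-head” germlines, against 689 and 652 CPM in control germlines (DESeq2 adjusted p = 4.0e-05). The stalk protein gene rplp-1 had 739 and 859 CPM in “red-head” germlines, against 1231 and 1362 CPM in control germlines (log2 fold change -0.70, SE 0.13). The genes rpl-22 and rpl-23A.2 had 526 and 643 CPM, and 381 and 477 CPM, in “red-head” germlines, against 943 and 926 CPM, and 833 and 774 CPM, in control germlines. In all 6 the groups did not overlap, and no edgeR adjusted p was below 0.05. The gene rpl-41.2 was set apart by 1 library: it had 0.332 and 50.1 CPM in “red-head” germlines, against 56.3 and 80.02 CPM in control germlines, so its log2 fold change of -1.71 (SE 1.31) rested on replicate 1.

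The difference in ribosomal protein genes moved with gene length. Over the 7594 tested protein-coding genes the median log2 fold change ran from -0.37 for 396 genes of up to 500 nt, through -0.11 for 1454 genes over 500 and up to 1000 nt, to 0.08 for 621 genes over 4000 nt. Among genes of up to 500 nt, 34 ribosomal protein genes had a median of -0.53 and 31 of them were lower in both libraries, against a median of -0.34 for the 362 other genes, of which 165 (45.6%) were lower. Among genes over 500 and up to 1000 nt, 39 ribosomal protein genes had a median of -0.32, against -0.10 for the 1415 others. Other nuclear genes, whose lengths were not counted by list, had the same direction. Of 68 mitochondrial ribosomal protein genes, 36 were lower and none was higher (median log2 fold change -0.22). Of 36 nuclear respiratory chain genes, 15 were lower and none was higher (-0.16). Over all tested genes, 19.6% were lower and 18.4% higher. The respiratory complex I gene ndua-2 had 8.56 and 13.7 CPM in “red-head” germlines, against 26.8 and 29.0 CPM in control germlines (DESeq2 adjusted p = 0.0145). Length classes were added after the values were seen, and the part of gene length in the ribosomal protein values was not tested.

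**Figure D4:**
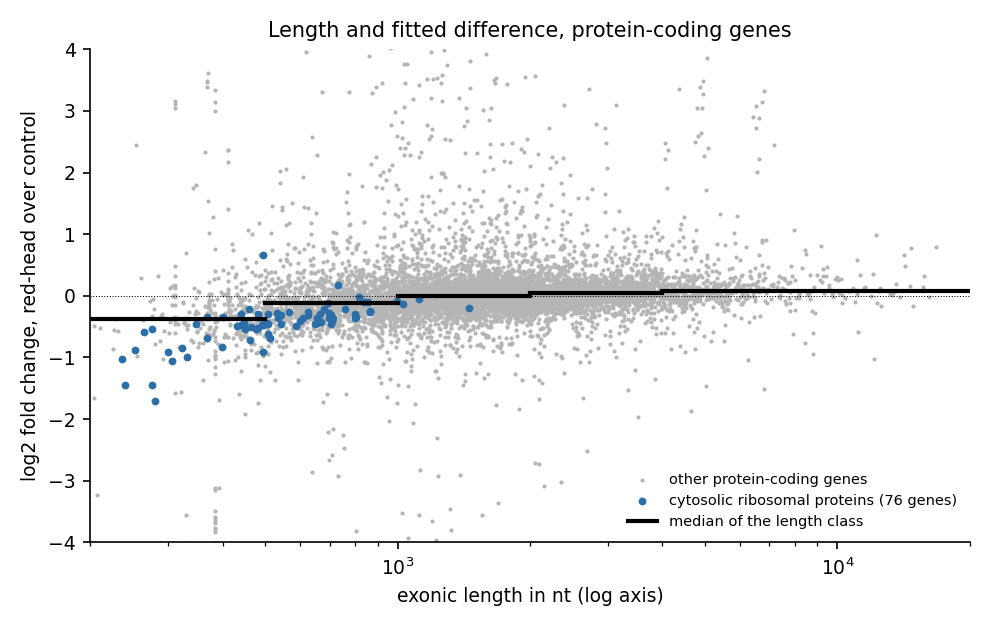
Exonic length (nt, log axis) against the fitted log2 fold change for the tested protein-coding genes, with the 76 cytosolic ribosomal protein genes in blue and the median of each length class as a black line; 55 genes fall outside the axes. The median line climbs from -0.37 at the shortest class to 0.08 at the longest, and the blue points lie mostly under it at the left.

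Translation factors and other housekeeping lists moved less. The elongation factor gene eef-2 had 6278 and 7270 CPM in “red-head” germlines, against 7595 and 7085 CPM in control germlines, and the groups overlapped. Of 39 translation factor genes, 9 were lower (23.1%) and 2 higher (median log2 fold change -0.09), and of 33 proteasome subunit genes, 9 were lower (27.3%) and 2 higher (-0.10), against 19.6% lower and 18.4% higher over all tested genes. With 1 library left out these medians came as close to 0 as -0.0074 and -0.029. Small nuclear and nucleolar RNA processing proteins gave 13 of 27 lower and none higher. The RNA-binding protein gene rbm-3.1 had 171 and 172 CPM in “red-head” germlines, against 282 and 299 CPM in control germlines (log2 fold change -0.76, DESeq2 adjusted p = 0.0023). The chitinase-like gene cht-3 had 166 and 139 CPM in “red-head” germlines, against 250 and 267 CPM in control germlines (DESeq2 adjusted p = 0.007). In 74 of the 88 DESeq2 calls that edgeR also tested, both F2 offspring libraries lay on the control side of both “red-head” libraries. The calls were selected for a difference between “red-head” and control libraries, in a fit that held the offspring libraries. This count is thus no measure of a return to the control level. The call lys-7 had no scaled level and was not compared, and the same share over all tested genes was not counted. The other compared genes include 9 histone genes of chromosome II, R03D7.2, ztf-28 and egl-30, and none of these others is among the genes plotted by group.

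**Figure D5:**
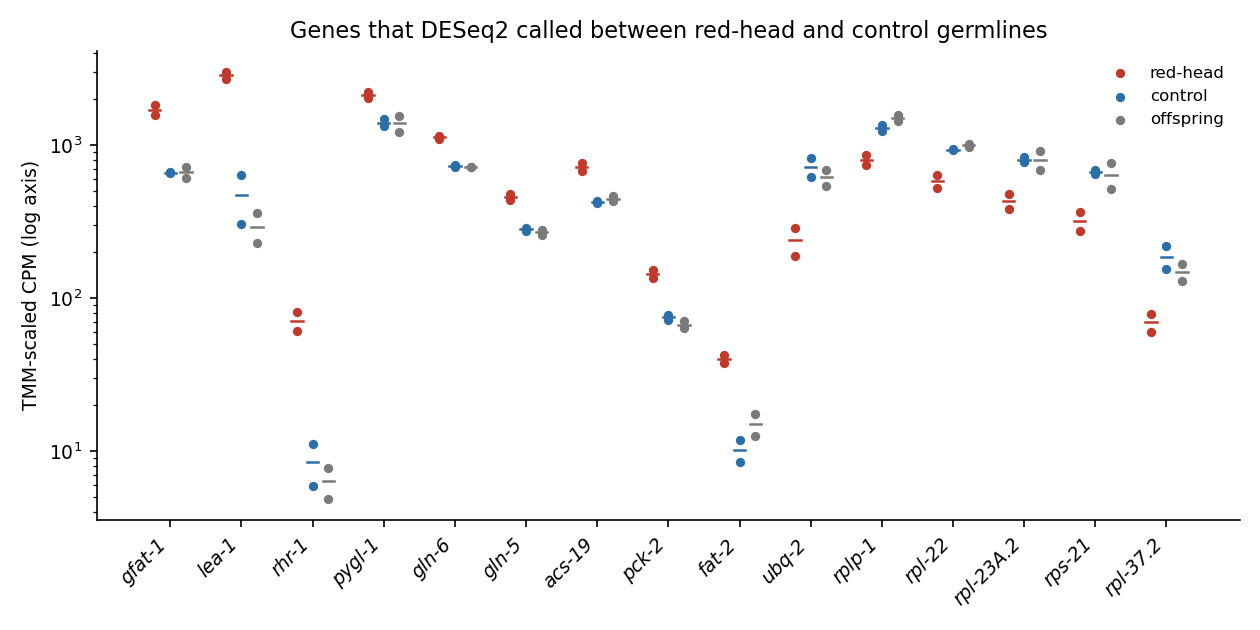
TMM-scaled CPM (log axis) of 15 genes chosen from the 89 that DESeq2 called, in each “red-head” (red), control (blue) and F2 offspring (grey) library, with a bar at each group's mean. For the 9 genes on the left both “red-head” points lie above the control points, for the 6 genes on the right both lie below, and the offspring points lie on the control side.

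Most snoRNA genes were lower, and “red-head” replicate 2 lay below replicate 1, as the second F2 offspring library lay below the first. Of 65 tested snoRNA genes, which guide the modification of ribosomal RNA, 42 were lower in both libraries and none was higher, with a median log2 fold change of -0.94. The median deviation from the control mean was -0.49 in replicate 1 and -1.54 in replicate 2, and it was 0.04 and -1.82 in the F2 offspring libraries. The second offspring library shares its name tag with “red-head” replicate 2, and the part of that tag in these values was not tested. Of 19 snRNA genes, 3 were lower in both libraries (15.8%, against 19.6% of all tested genes), and the list lay at -0.06 in “red-head” replicate 1, at -2.31 in replicate 2 and at -2.70 in the second offspring library. The snRNA gene ZK897.4 had 4.57 and 3.34 CPM in “red-head” germlines, against 40.2 and 21.8 CPM in control germlines, with a DESeq2 adjusted p of 0.411 on 6 libraries and 2.1e-07 on 4. Among protein-coding genes, R03D7.2 had 15.4 and 8.17 CPM in “red-head” germlines, against 109 and 106 CPM in control germlines, with a log2 fold change of -3.09 (SE 0.55, DESeq2 adjusted p = 0.0178). F23A7.4 had 2.24 and 1.86 CPM in “red-head” germlines, against 14.9 and 24.9 CPM in control germlines (DESeq2 adjusted p = 0.0026). Whether the counting used strand is not stated, so genes that overlap another gene on either strand are uncertain.

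Spermatogenesis genes were lower at the edge of detection. Hermaphrodites make sperm in a larval period and oocytes afterwards, and the major sperm proteins, encoded by the msp genes, are the most abundant proteins of sperm. Of 38 tested genes of the list, 27 were lower in both “red-head” libraries and 2 higher. Over all tested genes, 19.6% were lower and 18.4% higher. The median log2 fold change of the 38 genes was -3.61, and DESeq2 on 6 libraries called 0 of them. The other listed genes did not pass the filter on low counts. That filter keeps a gene that is high in 1 group alone, so the share of lower genes and the median depend in part on it. The 31 msp genes together had 24 and 23 counts in “red-head” libraries, against 707 and 220 counts in control libraries, and 328 and 35 counts in the F2 offspring libraries. Of the 19 msp genes tested, 18 were lower and 1 overlapped, with a median of -3.84. Of the 19 other genes of the list, 9 were lower, 2 higher and 8 overlapped, with a median of -1.04. The gene msp-81 had 0 counts in both “red-head” libraries and 28 counts over the control libraries, so it was at least 10.97-fold lower in “red-head” germlines against a floor of 3 counts over the group. With genes at 0 in the “red-head” libraries set to such a bound, the median of the list was -3.47. The sum of the whole list was 275 and 278 CPM in “red-head” germlines, against 429 and 324 CPM in control germlines. Copies of msp genes are near identical, the summed msp level was 1.99 and 8.52 CPM in “red-head” germlines, against 94.7 and 43.0 CPM in control germlines, and with at least 10 counts asked of every library 6 genes were left and the median was 0.06.

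The lists of germline genes had medians near 0. The fitted change was under 2-fold for all but 6.76% of the tested genes. Of 47 chromosome axis, pairing and crossover genes, 4 were higher and 10 lower, and the median log2 fold change was -0.02. Argonautes and small RNA factors had 3 of 46 higher and 5 lower (-0.06), and P granule and germline RNA helicase genes 1 of 25 higher and 6 lower (-0.10). Replication genes had 12 of 37 higher and 4 lower (0.07), and histone methylation and chromatin regulators 12 of 38 higher and 2 lower (0.04). These counts are set against 18.4% higher and 19.6% lower over all tested genes. The histone methyltransferase gene mes-4, which carries H3K36 methylation in the germline, had 217 and 222 CPM in “red-head” germlines, against 208 and 207 CPM in control germlines. The helicase gene mcm-2 had 682 and 733 CPM in “red-head” germlines, against 606 and 639 CPM in control germlines. The Notch receptor gene glp-1, which keeps distal cells in mitosis, had 531 and 578 CPM in “red-head” germlines, against 472 and 483 CPM in control germlines. The Argonaute gene csr-1 had 686 and 766 CPM in “red-head” germlines, against 951 and 818 CPM in control germlines. All 4 were separated by narrow gaps and none had an unadjusted p under 0.05. Of these, mes-4 and mcm-2 were chosen for the text after their values were seen, as were the genes that follow. The P granule gene pgl-1 had 440 and 686 CPM in “red-head” germlines, against 648 and 631 CPM in control germlines. The synaptonemal complex gene syp-1 had 60.5 and 90.6 CPM in “red-head” germlines, against 65.6 and 62.6 CPM in control germlines. In both genes the “red-head” replicates lay further apart than the controls. The germline fate gene pie-1 had 119.8 and 118.1 CPM in “red-head” germlines, against 121 and 108 CPM in control germlines. The cyclin B gene cyb-1 had 402 and 330 CPM in “red-head” germlines, against 356 and 384 CPM in control germlines, and the oocyte regulator gene lin-41 had 688 and 757 CPM, against 667 and 721 CPM. Groups overlapped for all 5. The yolk receptor gene rme-2 overlapped, with 2087 and 2018 CPM in “red-head” germlines, against 2061 and 2122 CPM in control germlines.

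Histone genes split by location. The split by clone was not among the planned classes and was made with earlier results of these data known, so it is no separate support. All 13 histone genes of the ZK131 and F08G2 clones on chromosome II lay above both controls, and DESeq2 called 9 of them. Their median log2 fold change was 3.12, with a range of 1.41 to 3.48. Their summed level was 3907 and 3090 CPM in “red-head” germlines, against 615 and 183 CPM in control germlines. It was 7860 and 7876 CPM in the F2 offspring libraries. Among 61 other tested histone genes 6 were higher (9.84%) and 16 lower (26.2%), with a median log2 fold change of -0.12. Over all tested genes, 18.4% were higher and 19.6% lower. The H3 gene his-42 (F08G2.3) had the lowest fold change of the 13, with a log2 fold change of 1.41 (SE 0.18, DESeq2 adjusted p = 1.8e-06). It had 49.9 and 59.4 CPM in “red-head” germlines, against 22.3 and 18.2 CPM in control germlines, and 170 and 133 CPM in the F2 offspring libraries. Histone mRNAs are short and near-identical copies share reads, so single copies are uncertain. X-linked genes gave 113 of 792 higher (14.3%) and 37 lower (4.67%), both below the 18.4% and 19.6% of all tested genes. The 2 libraries lay on opposite sides, with a median deviation of 0.40 in replicate 1 and -0.36 in replicate 2.

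Of the 6 genes named in the transgenes of the strains, 4 overlapped the controls and 2 were lower, and none had an unadjusted p under 0.05. The gene eef-1A.1, from whose promoter eft-3p both histone reporters are driven, had 13892 and 17555 CPM in “red-head” germlines, against 16140 and 14735 CPM in control germlines. The gene tbb-2 had 1811 and 1597 CPM in “red-head” germlines, against 1649 and 1667 CPM in control germlines. The endogenous gene gpr-1 had 62.7 and 58.3 CPM in “red-head” germlines, against 67.6 and 71.4 CPM in control germlines. The gene unc-18 had 195 and 177 CPM in “red-head” germlines, against 228 and 164 CPM in control germlines, and unc-119, at 3 to 36 counts, had 2.99 and 1.11 CPM, against 3.23 and 3.53 CPM. The myosin gene unc-54, given above, had a log2 fold change of 0.79 (SE 0.66). Transgene copies that differ in sequence, such as the recoded gpr-1, need not align to these genes. Genes of the mitochondrial genome, 14 in the count tables, had 0 counts in all 4 libraries and were not analysed here.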

How the data were processed

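Single-end reads of 50 bp from rRNA-depleted libraries had been mapped by the authors against the transcriptome of WS220 (TopHat2) and counted per gene (HTSeq); the deposited values are raw counts, and tool versions are not given in the sources used here. Rows naming no gene (10.7% to 13.7% of reads without a feature and 1.75% to 2.15% ambiguous in the 4 libraries) were left out. A deposited table of the authors' DESeq2 comparisons (mean level, fold change, adjusted p) was not used. The test was edgeR 4.0.16 in R 4.3.3 (filterByExpr, TMM, glmQLFit and glmQLFTest on all 6 libraries, Benjamini-Hochberg adjusted p of 0.05), and was tested on simulated data. Alternatives were DESeq2 1.42.0, other scalings and filters, 4 libraries only, a replicate block and each library left out. Names and lengths came from RefSeq and Ensembl release 115, and 525 of 45461 names were unmatched. Genes were named by a rule: up to 12 per direction with the widest gap at 10 CPM or more, up to 5 per direction with the lowest p, up to 3 per direction and list, the 5 most abundant, the transgene genes, and the widest gap per abundance class and direction. Of the genes described with their levels, 22 fall outside that rule and were chosen after their values were seen: acs-19, cht-3, cpg-3, cpl-1, cyb-1, fat-2, gln-5, gln-6, gyg-2, lin-41, lys-8, mcm-2, mes-4, ndua-2, pccb-1, pgl-1, pie-1, pygl-1, rbm-3.1, rme-2, rpl-41.2 and syp-1. Members and lists were chosen with earlier results of these data known.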

Additional observations from a re-analysis of the deposited data

How the results depend on the processing

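In edgeR, 0 genes were called with RLE size factors, library size only, at least 10 counts in every library or an adjusted p of 0.1. Calls numbered 89 with DESeq2 on 6 libraries, 110 with DESeq2 on the 4 compared, 8 with edgeR on those 4, 355 with no filter on low counts, and 0 to 54 with each library left out. With a replicate block 7 genes were called. The labels do not say that a number pairs samples, and same-numbered libraries had a correlation of deviations of -0.09 for “red-head” and control, 0.046 for “red-head” and offspring, and 0.39 for offspring and control. Separated genes numbered 2690 higher and 3455 lower with no filter, 245 and 169 at a gap of at least 0.5, and 127 and 52 at a gap of at least 1.

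The median log2 fold change of some lists moved by more than the spread between libraries. For spermatogenesis genes it was 0.063 with at least 10 counts in every library, where 6 genes were left. For lectins and lysozymes (28 genes in the main fit) it was 0.219 with DESeq2 on 6 libraries (308 genes) and 0.413 on 4 (290). It was 0.23 with no filter (308) and 0.172 with at least 10 counts (7). For neuron markers (6 genes in the main fit) it was 0.0964 and 0.0832 with DESeq2 on 6 and 4 libraries (29 genes each). It was 0.529 with edgeR on 4 (5) and 0.205 with no filter (29). For lipid metabolism genes (54 in the main fit) it was 0.356 and 0.355 with DESeq2 on 6 and 4 (108 and 106 genes). It was 0.288 with RLE and 0.297 with library size only (54 each). With no filter it was 0.364 (108), and with at least 10 counts 0.141 (33). For insulin, neuropeptide and TGF ligands it was 0.125 with DESeq2 on 4 and 0.146 with the block, for chaperones -0.0611 with DESeq2 on 6 and -0.0657 with no filter, and for transgene genes 0.0273 with at least 10 counts. For genes of 30 to 100 CPM it was -0.0211 on 4 libraries, -0.0229 with RLE and -0.00676 with library size only. Where a setting changed the genes tested, its median is over different genes and does not compare the tools. The cause of the other moves was not tested.

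With each library left out, the median log2 fold change ranged as follows: 2.61 to 3.87 for intestine markers, 0.0608 to 0.754 for neuron markers, -4.76 to -2.33 for spermatogenesis genes, -0.114 to -0.00843 for core and linker histone genes, 0.0179 to 0.111 for germ cell apoptosis genes, -0.32 to -0.169 for mitochondrial ribosomal proteins, -0.114 to -0.064 for heat shock and chaperone genes, 1.81 to 2.92 for lectins, lysozymes and antimicrobial genes, 0.0662 to 0.643 for detoxification enzymes, 0.203 to 0.34 for lipid metabolism genes, -0.037 to 0.474 for insulin, neuropeptide and TGF ligands, 0.0144 to 1.75 for cuticle collagens, -0.373 to 0.394 for nuclear hormone receptors, -0.272 to 0.0799 for F-box, MATH and BATH genes, -0.263 to -0.0776 for small nuclear and nucleolar RNA processing proteins, -0.0948 to 0.0585 for genes in the transgenes of the strains and -0.266 to 0.187 for genes under 10 CPM.

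Signs turned for genes near 0. The fold change of cyb-1 was 0.000795 with edgeR on 4 libraries and 0.0157 with library size only. With each library left out, fold changes on the log2 scale were -0.00604 to 0.134 for lin-41, -0.0454 to 0.132 for tbb-2, -0.0796 to 0.509 for syp-1, -0.287 to 0.185 for unc-18, -0.147 to 0.195 for eef-1A.1, -0.0891 to 0.0061 for cbd-1, -0.0517 to 0.00226 for rme-2, -0.0219 to 0.132 for pie-1, -0.157 to 0.123 for cyb-1 and -0.535 to 0.11 for pgl-1.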
